A study of Mus musculus with 388 samples.

Results

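Haptoglobin (Hp), the kininogens Kng1 and Kng2, leucine-rich alpha-2-glycoprotein (Lrg1), lipocalin 2 (Lcn2), serum amyloid A3 (Saa3) and the serine protease inhibitor Serpina3n were followed through single bone marrow stromal cells. These 7 genes were taken by symbol from a table of 25000 genes, and all 7 were found. They were selected on their measured levels in these same cells, so the values are a description and carry no test. The cells came from C57BL/6 mice aged 2 months with the genotype KitMerCreMer; R26tdTomato, in which tamoxifen lets a Cre made by Kit-expressing cells switch on the red protein tdTomato for good. All mice were given tamoxifen before birth, at E12.5 and E14.5 (days of embryonic life), so that Tomato+ cells descend from fetal cells with active Cre, while Tomato− cells of the same genotype and treatment stayed unlabelled. The sort took PDGFRα-positive cells without the blood, red cell and endothelial surface proteins CD45, Ter119 and CD31. Cell titles name 2 orders and 8 sets. After removal of 2 shallow cells, order 1 held the Tomato− set N2 (60 cells) and the Tomato+ sets P1, P2 and P3 (94, 5 and 38 cells), and order 2 held the Tomato− sets N1 and N2 (71 and 70 cells) and the Tomato+ sets P1 and P2 (24 cells each).

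No animal is named for any cell, so each group counts as 1 sample. What an order or a set number stands for is not given in the labels. The kept cells had a median of 679644 counts, with set medians from 357347 to 848562. All 22 markers of Lepr+ marrow stroma had counts in every set and made up a median of 2.92% to 10.8% of a cell's counts. Of 10 hepatocyte markers, 6 (Alb and Ttr among them) were at 0 in every cell, and the 10 together made up at most 0.0236% of any cell's counts. Transcripts of the types that the sort was set to leave out were also read: 12 cells had 5 or more counts of Ptprc, which encodes CD45, and 23 others had 5 or more of Pecam1, which encodes CD31. Such counts do not measure the surface proteins.

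Acute phase proteins are secreted plasma proteins whose level shifts during infection or injury, and the liver is their best known source. Interleukin 6 family cytokines acting through STAT3, and interleukin 1 and TNF acting through NF-kB and C/EBP factors, are the textbook inducers. Several of these proteins are also made outside the liver: Lcn2 is stored in neutrophil granules, and Saa3 is the serum amyloid A gene of macrophages, fat and other tissues.

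The members divided by how their counts were spread over cells. Hp, Kng1, Kng2 and Serpina3n had a count in 100%, 99.7%, 99.5% and 97.9% of the 386 cells, and no single cell held more than 2.58% of the counts of any of them. A stricter cut was 1% of the gene's highest count in the library pool. These 4 genes reached it in 88.1%, 81.3%, 80.8% and 74.9% of cells. In N2 of order 1 the shares were lower, at 66.7%, 56.7%, 60% and 40%. Lrg1, Lcn2 and Saa3 reached the cut in 13.5%, 4.92% and 5.96% of the 386 cells. To reach 50% of the counts took 65 cells for Hp, 57 for Kng1, 70 for Kng2 and 69 for Serpina3n. Lrg1 reached 50% with 2 cells, Lcn2 with 3 and Saa3 with 3. The label of stromal genes went against the data for most reads of Lcn2 and Lrg1. Of Lcn2 counts 98.6% lay in 8 cells rich in granulocyte transcripts, and of Lrg1 counts 78.8% in 3 cells rich in endothelial transcripts. The label held for Kng1, Kng2 and Serpina3n. The cells highest in Saa3 carried Lepr, though few cells held its counts, and Hp was also read in the granulocyte-rich cells. On a scale per transcript length (TPM, computed over all kept cells), Hp stood at rank 8 of all genes and Serpina3n at 88. Kng1 and then Kng2 came next among the members, followed by Lcn2 at 221, Lrg1 at 505 and Saa3 at 6017.

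The kininogens are a pair of neighbouring genes on chromosome 16 of GRCm38, Kng1 at 23057865 to 23082078 on the plus strand and Kng2 at 22985854 to 23029482 on the minus strand. Both encode the precursor from which kallikreins cut bradykinin. The stretch around the bradykinin codons is shown because it encodes the released peptide and holds bases by which the copies can be told apart; it is less alike than the coding sequences as a whole. It spans the junction of exons 9 and 10 of 10 in both genes, at chr16:23077529-23079048 (Kng1, +) and chr16:22988248-22997064 (Kng2, -). Sequences are from GENCODE M21 transcripts on GRCm38, 5′ to 3′ along the coding strand with the intron removed, and capitals mark bases that differ from the other gene in the alignment, 17 in Kng1 and 20 in Kng2.
Kng1: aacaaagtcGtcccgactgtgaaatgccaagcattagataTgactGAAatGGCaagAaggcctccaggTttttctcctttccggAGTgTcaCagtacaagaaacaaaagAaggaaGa
Kng2: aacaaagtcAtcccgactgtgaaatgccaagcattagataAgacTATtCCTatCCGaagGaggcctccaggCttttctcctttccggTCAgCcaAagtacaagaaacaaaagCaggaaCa
The 27 bases that encode bradykinin begin after base 57 of the Kng1 stretch and base 60 of the Kng2 stretch. Over the full coding sequences 92.7% of the 1929 aligned bases were identical. Of all 50-base stretches of the transcripts, 17.2% of those of Kng1 and 19.4% of those of Kng2 also stood in the other gene. The sources used here do not say how reads were divided between them, so the split is less certain than the sum. Both genes had values that were not whole numbers in the same number of cells, 208 of 386. Kng2 also overlaps the processed pseudogene Gm6493 on its own strand.

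Upstream sequences are shown for the 2 members whose RefSeq start site window, 250 bases before to 50 after the site, held one of the searched motifs. Windows were available for Kng2, Lrg1, Lcn2, Saa3 and Serpina3n. The motifs, read on both strands, were C/EBP as TTGCNNCAA or TTGCNNAAT, STAT3 as TTCNNNGAA, NF-kB as GGG, any 2 bases, TT, any base and CC, and HNF1 as GTTAAT, any base and ATTAAC. Capitals mark the match in the 250 bases before the site, from RefSeq on GRCm38.p6, 5′ to 3′ along the gene's strand, at chr7:46715677-46715926 (Saa3, -) and chr12:104406458-104406707 (Serpina3n, +).
Saa3: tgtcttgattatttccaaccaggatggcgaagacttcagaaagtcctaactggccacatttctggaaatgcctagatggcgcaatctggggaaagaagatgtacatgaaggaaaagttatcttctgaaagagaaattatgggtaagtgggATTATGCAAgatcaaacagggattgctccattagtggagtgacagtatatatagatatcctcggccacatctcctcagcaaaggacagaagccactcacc
Serpina3n: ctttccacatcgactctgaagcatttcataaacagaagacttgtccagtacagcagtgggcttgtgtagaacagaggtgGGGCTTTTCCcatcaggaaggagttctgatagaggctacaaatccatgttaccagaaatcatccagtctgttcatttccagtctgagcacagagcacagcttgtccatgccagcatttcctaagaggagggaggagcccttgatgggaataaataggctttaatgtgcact
The Saa3 match is to the second C/EBP spelling and starts 100 bases before the start site (position -100), and the Serpina3n match is to NF-kB and starts at position -171. Of 32851 mouse promoter windows of the same length, 2.40% held that C/EBP spelling, 4.79% the NF-kB one, 2.08% the first C/EBP spelling, 8.30% STAT3 and 0.00913% HNF1. A match describes the letters only.

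Hp encodes the plasma protein that captures free haemoglobin. Its level in the median cell, in CPM (counts scaled to the same total in every cell), was 2568 in the Tomato− set N2 of order 1 and 8294, 499.7 and 3764 in the Tomato+ sets P1, P2 and P3 of that order. In order 2 the medians were 2924 and 3083 in the Tomato− sets N1 and N2 and 4393 and 3321 in the Tomato+ sets P1 and P2. The set P1 of order 1 stood highest and the 5 cells of P2 lowest, and single cells of all sets overlapped, from 8.04 CPM in a cell of P3 to 53278 CPM in a cell of N2, both of order 1. The summed cells of order 1 gave Hp at 7999.7 CPM in Tomato+ and 4370.5 CPM in Tomato− (95% Poisson intervals 7983 to 8016 and 4348 to 4393). The sums of order 2 were 4731 CPM (4707 to 4756) and 3833 CPM (3820.4 to 3846). These intervals cover counting error only, and amplified reads are not independent molecules.

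**Figure D1:**
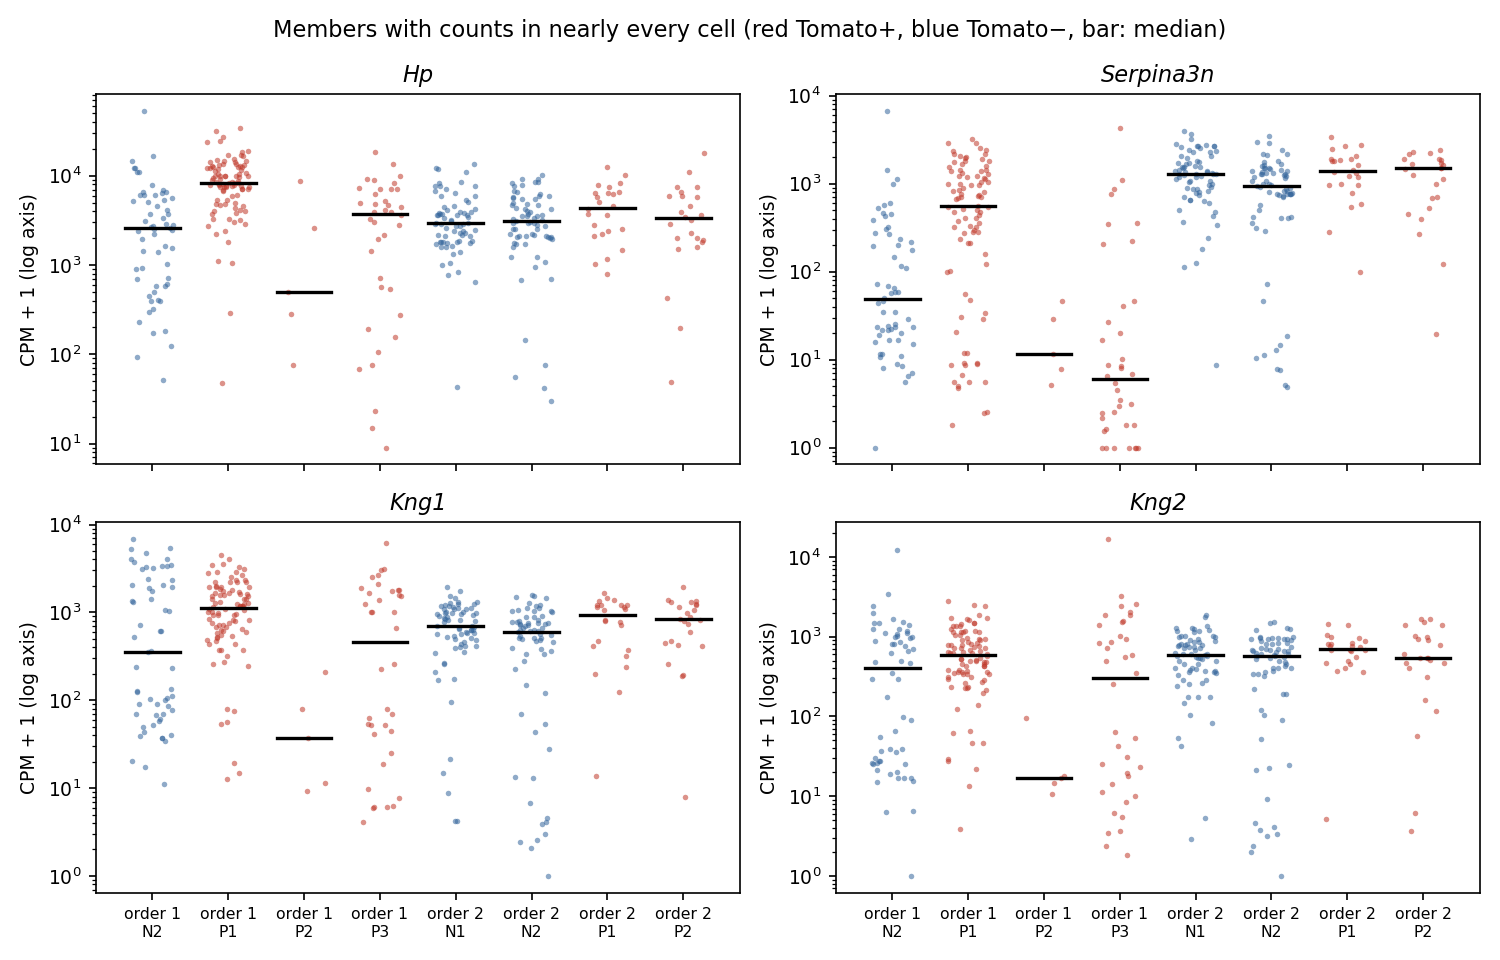
Per-cell level (CPM + 1, log axis) of Hp, Serpina3n, Kng1 and Kng2 in each kept cell of the 8 title sets; each point is 1 cell, red for Tomato+ and blue for Tomato−, and the black bar is the median of the set. Hp lay highest in the set P1 of order 1 (median 8294 CPM), and Serpina3n reached 0 CPM in cells of N2 and P3 of order 1.

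Hp was also read in cells that hardly carried the other 3 broad members. In the 8 granulocyte-rich cells of order 2 the summed Hp level was 2189 CPM, beside 4.82 CPM for Kng1, 4.67 CPM for Kng2 and 15.2 CPM for Serpina3n. That is 454 Hp counts for each Kng1 count, against 5.61 in the other cells of order 2 without endothelial transcripts above 1% of counts. In the 3 endothelial-rich cells Hp was at 23.4 CPM, with 4.33 counts for each Kng1 count. In the 55 cells in which Lepr, the leptin receptor of marrow stroma, was under 1% of the highest count in its library pool, Hp was at 2242 CPM, against 6102 CPM in the other 331 cells, and Kng1 was at 50.2 CPM against 1184 CPM.

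Serpina3n belongs to the family of secreted inhibitors that block neutrophil and mast cell serine proteases. Its median cell stood at 47.5 CPM in N2 of order 1, at 554, 10.6 and 4.94 CPM in P1, P2 and P3 of order 1, at 1296 and 937 CPM in N1 and N2 of order 2, and at 1389.6 and 1492 CPM in P1 and P2 of order 2. All 4 sets of order 2 had higher medians than any set of order 1. Within order 1 the sets P1 and P3, both Tomato+, were farther apart than P1 and the Tomato− set, and cells of P1 ran from 0.783 to 3238 CPM. Summed levels in order 1 were 619.9 CPM in Tomato+ and 268 CPM in Tomato− cells, and in order 2 they were 1412 and 1209 CPM. In 50-base stretches, 6.90% of the transcript also stood in 7 other genes, with the pseudogene Serpina3e-ps sharing most.

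Kng1 and Kng2 followed each other more closely across sets. Kng1 medians were 357 CPM in N2 and 1119, 36.4 and 459 CPM in P1, P2 and P3 of order 1, and 701 and 604 CPM in N1 and N2 and 938 and 832 CPM in P1 and P2 of order 2. Kng2 medians were 408 CPM in N2 and 589.8, 15.9 and 302 CPM in P1, P2 and P3 of order 1, and 580.3 and 576 CPM in N1 and N2 and 707 and 534 CPM in P1 and P2 of order 2. For both genes the 5 cells of P2 of order 1 lay lowest and the other sets overlapped. The split between the copies varied from cell to cell: among 352 cells with at least 20 counts of the pair, Kng1 made up a median of 57.8% (quartiles 44.3% and 71.3%), over 90% in 22 cells and under 10% in 13. The median Kng1 share was 63.1% in order 1 and 53.6% in order 2. Kng1 and Kng2 together gave 1766 CPM over all kept cells.

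Summed over the cells of order 1, Kng1 reached 1310.3 CPM in Tomato+ and 1686 CPM in Tomato−; for order 2 the sums were 857 and 651 CPM. Kng2 sums were 721 (Tomato+) and 833 CPM (Tomato−) for order 1, with 718 and 595 CPM for order 2. Both pairs of values pointed toward Tomato− in order 1 and toward Tomato+ in order 2. In order 1 the sum and the median of Kng1 went opposite ways, since the Tomato− set N2 held both many low cells (lower quartile 68.2 CPM) and many high ones (upper quartile 2129.9 CPM).

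The Tomato+ over Tomato− contrast was read as log2 of the ratio of summed CPM + 1 within each order. A gene was called higher or lower where the ratio passed 1.5-fold the same way in both orders, provided that the higher group reached 20 CPM and 20% of its cells carried a count. The mean of per-cell CPM also had to point the same way in both orders. By this rule 0 of the 6 members that passed the level filter were called higher and 0 lower. Of all 6748 genes that passed it, 3.10% were called higher and 4.30% lower. Saa3 did not pass and could not be called. The ratios of Hp were 0.87 in order 1 and 0.30 in order 2, and those of Serpina3n were 1.21 and 0.22. Those of Kng1 were -0.36 and 0.40, and those of Kng2 were -0.21 and 0.27. In order 1 alone 4 of the 6 members that passed the filter (Hp, Lrg1, Lcn2 and Serpina3n) differed by over 1.5-fold, all toward Tomato+, as did 52.2% of all tested genes in either direction. Lcn2 passed the filter only through Tomato− cells of order 2 and lay below 5 CPM in both groups of order 1. Lrg1 passed it only through the 11 cells rich in granulocyte or endothelial transcripts. With these left out, its highest level was 18.5 CPM, reached by the Tomato+ group of order 1. Its ratio in order 1 was then 0.93, against 4.53 with all cells. In order 2 alone 1 of 6 members differed by over 1.5-fold, Lcn2 toward Tomato−, beside 23.7% of all tested genes. The median ratio of the 7 members, as the mean of both orders, was 0.59, beside -0.01 over all 16143 genes with a count. It was 0.31 over the 6 members that passed the filter, without Saa3, beside 0.01 over all genes that passed. The median of the 7 was 1.21 in order 1 and 0.27 in order 2.

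**Figure D2:**
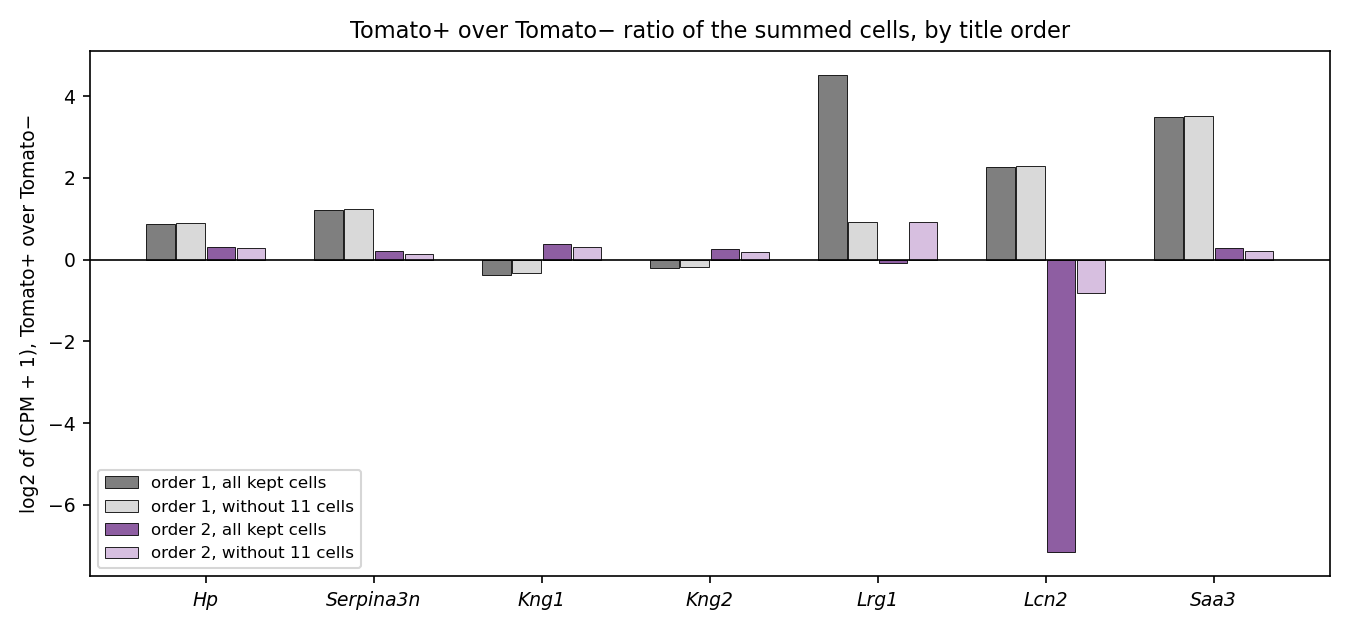
Log2 ratio of summed CPM + 1, Tomato+ over Tomato−, for each member in order 1 (grey) and order 2 (purple), over all kept cells (dark bars) and without the 11 cells rich in granulocyte or endothelial transcripts (light bars). Lcn2 in order 2 stood at -7.16 with these cells and at -0.82 without them, and Lrg1 in order 1 at 4.53 and 0.93.

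Library codes in the column names allowed the sets P1 and N2 of order 1 to be compared within a code. In the 7 codes that held both groups, all 83 Tomato+ cells were of P1 and all 60 Tomato− cells of N2, so the codes repeat the comparison of these sets and hold no cell of P2 or P3. The median Hp of Tomato+ cells was the higher one in 7 of 7 codes and that of Serpina3n in 6 of 7; the 6 codes with 5 or more Tomato− cells all had both medians higher in Tomato+. Kng1 was higher in Tomato+ in 5 of 7 codes and Kng2 in 3 of 7. Over these codes the summed ratio was 1.07 for Hp and 1.47 for Serpina3n. In the sets of order 2 numbered 1 it was 0.32 for Hp and 0.10 for Serpina3n, and in those numbered 2 it was 0.29 and 0.36.

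The size of the Hp and Serpina3n ratios rested on the Tomato+ set P1 of order 1. Without it the mean log2 ratio over both orders was 0.05 for Hp and -0.22 for Serpina3n, against 0.59 and 0.72 with it. Set P1 of order 1 was above the Tomato+ set P3 of the same order in the summed level of Hp, 9375 against 3799 CPM, and of Serpina3n, 768 against 182.98 CPM (log2 ratio 2.06). Of the 5 members with 20 CPM or more in one of these sets, Hp and Serpina3n were higher in P1 and Lrg1 was lower by over 1.5-fold, beside 30.5% of 7311 genes higher and 36.1% lower. Reads of sex-linked genes differed between these sets too. In P1, 59 of 94 cells had 5 or more counts of Y-linked genes and under 5 of Xist. In P3, 20 of 38 cells had 5 or more counts of Xist and under 5 of Y-linked genes. N2 of order 1 held 9 cells of the first kind and 19 of the second. The part of sex in the Hp and Serpina3n values was not tested.

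The orders differed by over 1.5-fold in the same direction in both groups for 3 of the 6 members that passed the level filter, beside 26.3% of all tested genes. Serpina3n was higher in order 2, with a log2 ratio of order 2 over order 1 of 1.19 in Tomato+ and 2.17 in Tomato− cells. Lcn2 was higher too, at 0.83 and 10.26, and Kng1 was lower, at -0.61 and -1.37. The level filter was passed by Lcn2 only through Tomato− cells of order 2. Without the 11 cells rich in granulocyte or endothelial transcripts its levels lay below the 20 CPM of that filter. They were 4.32 and 6.33 CPM in Tomato+ and 0.091 and 11.9 CPM in Tomato− cells of orders 1 and 2. Lrg1 pointed opposite ways, at -2.55 in Tomato+ and 2.07 in Tomato− cells. Hp was at -0.76 and -0.19, and Kng2 at -0.01 and -0.48. Animal, day and library preparation cannot be told apart from the order.

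Lcn2 encodes a siderophore-binding protein of neutrophil granules. In order 1 its summed level was 4.24 CPM in Tomato+ and 0.091 CPM in Tomato− cells, from 472 and 3 counts, a ratio of 46.4 with a counting interval of 15.8 to 226. Set P1 held 469 of the 472 counts and 1 of its cells 61.2%, while the Tomato+ set P3 was at 0.0395 CPM. P3 and the Tomato− cells each had 3 counts or fewer, too few to rank them. In order 2 the summed Lcn2 level was 8.33 CPM in Tomato+ and 1333 CPM in Tomato− cells. The Tomato− level of order 2 came from 8 cells, 1 of N1 and 7 of N2, in which 20 granulocyte and myeloid markers made up 25.9% to 41.9% of all counts. Lcn2 in these 8 cells ran from 13552 to 28669 CPM with a median of 16728 CPM, and the top cell alone held 23.3% of all Lcn2 counts.

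Elsewhere in order 2, low Lcn2 counts were common. A count was present in 80.9% of all Tomato− and 39.6% of all Tomato+ cells of order 2, or in 63.7% and 22.9% with each cell thinned to 150000 counts, which left 48 Tomato+ cells. A count of at least 1% of the highest in the pool was present in 5.67% and 0%, and 0 of 48 cells allows up to 6.25%, taking 3 cells as the limit. The highest counts of these pools, 16705 and 29020, both lay in granulocyte-rich Tomato− cells. Tomato+ cells of order 2 had at most 66 counts, so this cut could not find Lcn2 at their level. For every 100 counts of Ngp, a neutrophil granule gene, the remaining cells of order 2 held 31.5 counts of Lcn2 and the 8 granulocyte-rich cells held 25.1. For every 100 counts of S100a8 the values were 21.3 and 19.8. The set P1 of order 2 stood apart, with 97.3 Lcn2 counts for every 100 of Ngp, though from few counts of either. In order 1, where the highest myeloid marker share of any cell was 0.304%, 1 Tomato+ cell of P1 carried 289 Lcn2 counts (287 CPM) beside 2908 of Lepr and a myeloid share of 0.00676%.

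**Figure D3:**
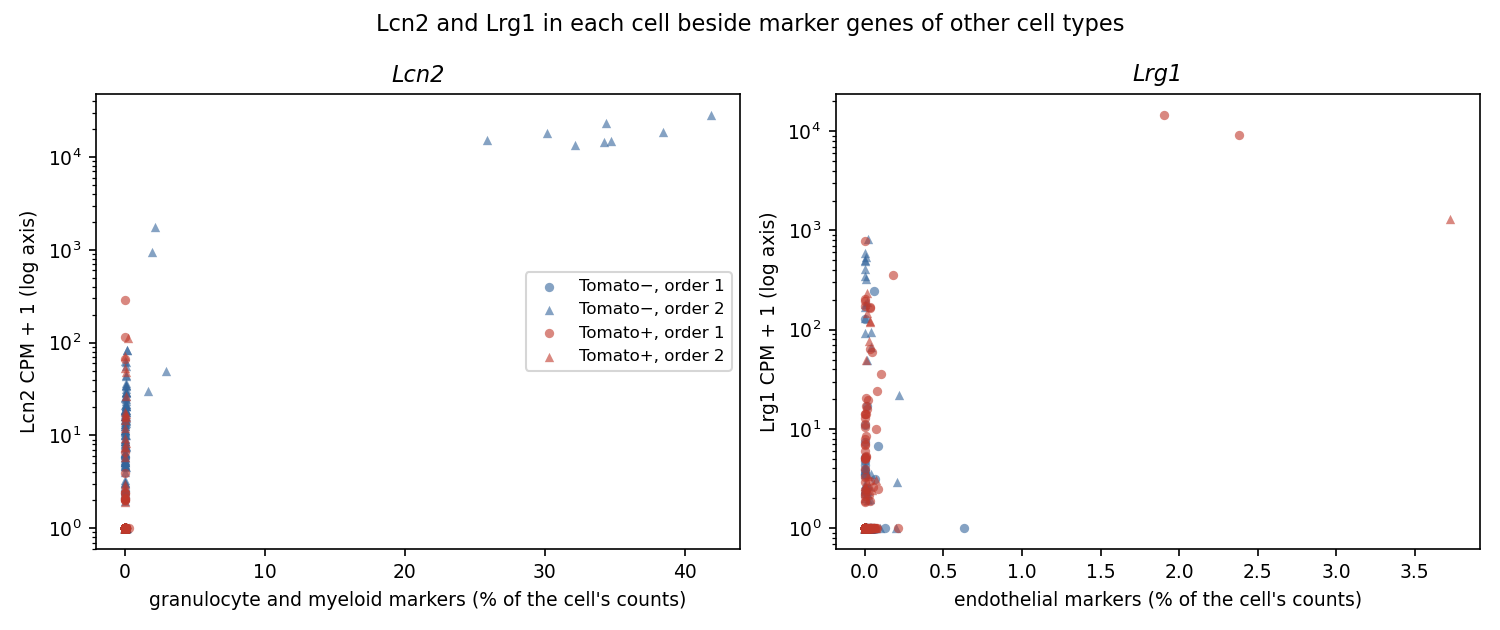
Left, Lcn2 level (CPM + 1, log axis) against the share of the cell's counts in 20 granulocyte and myeloid markers; right, Lrg1 level against the share in 14 endothelial markers; each point is 1 kept cell, circles for order 1 and triangles for order 2, red for Tomato+ and blue for Tomato−. The 8 cells with Lcn2 at 13552 CPM or more all had myeloid shares above 25%, and the 3 cells with endothelial shares above 1% were the 3 highest in Lrg1.

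Lrg1 encodes a secreted leucine-rich glycoprotein that acts on TGF-beta signalling in endothelium. Its summed level was 235 CPM in Tomato+ and 9.22 CPM in Tomato− cells of order 1 and 39.4 and 42 CPM in order 2. In order 1 the level of P3 was 958 CPM against 22.5 CPM in P1, and 2 cells of P3 held nearly all of it, at 9095 and 14684 CPM. They carried 41.3% and 35.2% of all Lrg1 counts, with 733 and 218 counts of Pecam1, endothelial shares of 2.38% and 1.90%, and 50 and 18 counts of Lepr. A cell of P2 of order 2 with an endothelial share of 3.73% had 1295 CPM.

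The 8 granulocyte-rich cells formed a second source of Lrg1, each with 5 or more counts and a median of 499 CPM. Without these 8 and the 3 endothelial-rich cells, 375 cells remained, and the Lrg1 level was 18.5 CPM in Tomato+ and 9.22 CPM in Tomato− cells of order 1, and 15.2 and 7.51 CPM in order 2. The log2 ratio was then 0.93 in both orders, with Lrg1 under the 20 CPM of the level filter. Few cells carried these levels: in order 1 the top cell held 58.7% of the 303 Tomato− counts. In P1 of that order the top cell held 31.7% of the counts of the set. Stromal cells did contain some Lrg1: the cell with the most outside those 11, in P1 of order 1, had 784 CPM beside 2169 counts of Lepr and a myeloid share of 0.0481%. Over the same 375 cells the ratios of Lcn2 were 2.29 in order 1 and -0.82 in order 2.

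**Figure D4:**
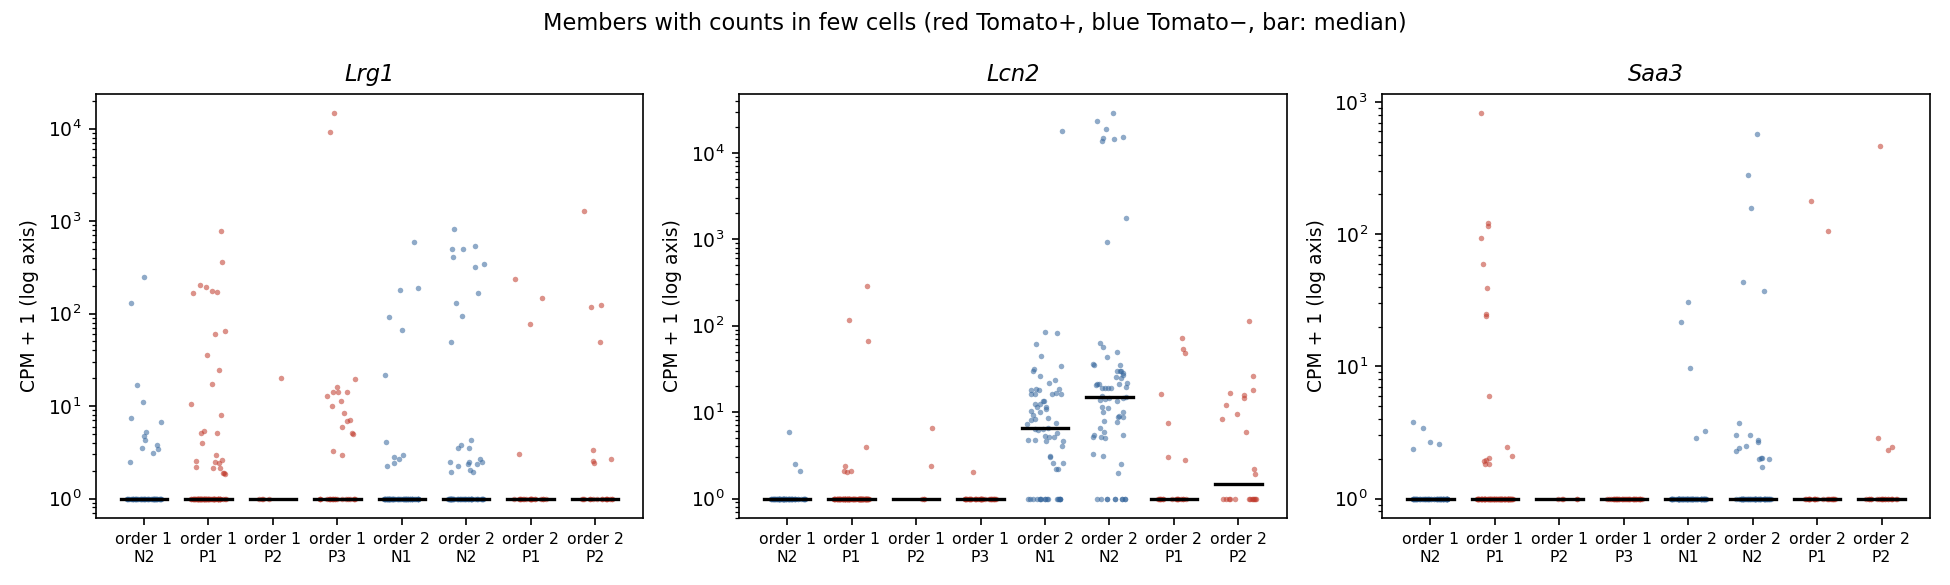
Per-cell level (CPM + 1, log axis) of Lrg1, Lcn2 and Saa3 in each kept cell of the 8 title sets; points and bars as for the 4 broad members. Most cells lie at 0 for Lrg1 and Saa3, and in the Tomato− sets of order 2 the 8 granulocyte-rich cells stand at 13552 CPM or more of Lcn2, far above the set medians of 5.47 and 13.9 CPM.

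Saa3 encodes an apolipoprotein of the serum amyloid A family. It had a count in 50 of 386 cells (12.95%, 95% Clopper-Pearson interval 9.77% to 16.7%) and 5 or more counts in 17. The top cell, in P1 of order 1, held 27.04% of all counts at 822.5 CPM, and the next were a cell of N2 of order 2 at 576 CPM and another of that set at 278 CPM, with 20.9% and 12.1%. Its 10 highest cells all carried Lepr, from 492 to 11028 counts, and had at most 1 count of Ptprc. The 8 granulocyte-rich cells together had 1 count, and the 3 endothelial-rich cells had none.

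Saa3 was at 12.4 CPM in Tomato+ and 0.182 CPM in Tomato− cells of order 1, the latter from 6 counts, and at 16.4 and 13.3 CPM in order 2. It did not pass the level filter. No count was found in the 38 cells of P3 of order 1, which allows up to 0.118 CPM (3 counts), or in the 5 of P2. N1 of order 2, at 0.461 CPM, stood far below N2 of order 2, at 23.5 CPM, so the sets of 1 group differed more than the groups of order 2 did. The mean ratio of 1.89 rested on single sets: it was 0.02 without P1 of order 1, 0.29 without N2 of order 1 (which leaves order 2 alone) and 3.54 without N2 of order 2. Leaving out the top cell of each group and order gave 1.16.

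Across cells, the 4 broad members were positively related. Spearman's rho was taken within each of the 7 sets with at least 20 cells and then averaged; the cells of a set share their title set, their depth varied (in P3 of order 1 from 18031 to 1808140 counts), and no p is given. Hp and Serpina3n were closest (mean rho 0.50, sets 0.31 to 0.79), followed by Kng1 and Kng2 (0.46, 0.23 to 0.66), which may share reads. Hp was at 0.39 with Kng1 and 0.37 with Kng2, and Serpina3n was at 0.36 with Kng2 and 0.25 with Kng1. All 42 values for these 6 pairs and 7 sets were above 0, and the mean of the pairs was 0.39, or 0.35 without the 35 cells with Ptprc or Pecam1 counts. Pairs of other genes of like level were not examined, so the values have no background and are not shown to be particular to the members. The 55 cells low in Lepr were not left out as a group, and their part in the values was not tested. Each of the 4 broad members had a mean rho with the total counts of the cell of 0.18 or less. In single sets the rho with total counts reached 0.47 for Hp, 0.45 for Kng1, 0.39 for Kng2 and 0.26 for Serpina3n. Lrg1 and Lcn2 were at 0.25. Saa3 lay between -0.07 and 0.10 with each other member, on few cells with counts.

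**Figure D5:**
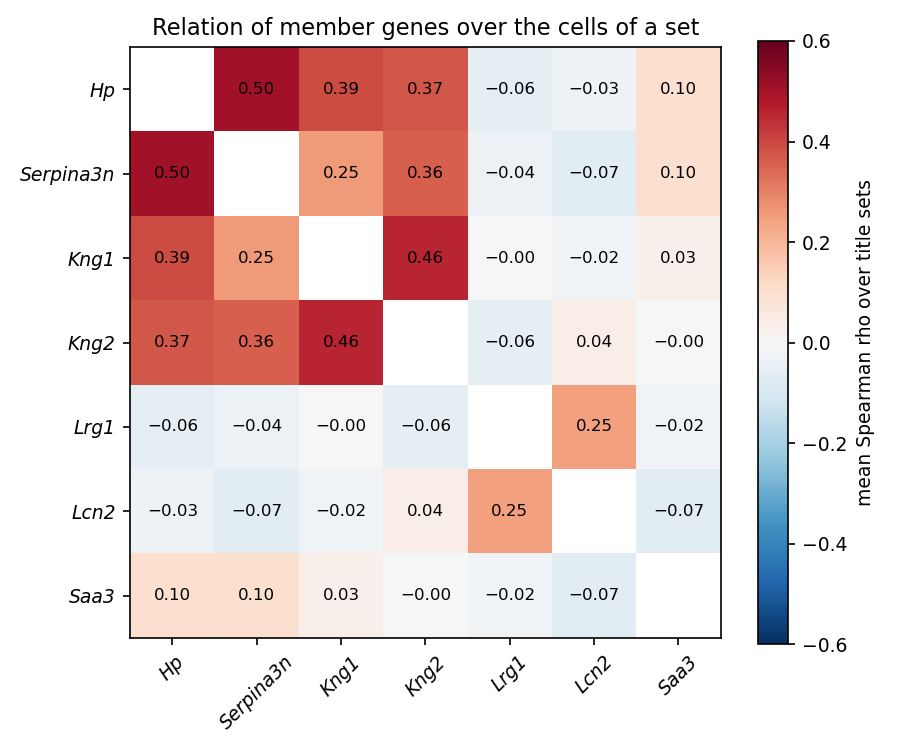
Mean Spearman rho of per-cell levels within title sets of at least 20 cells, for each pair of members (6 sets for pairs with Saa3, otherwise 7); red is above 0 and blue below. The block of Hp, Serpina3n, Kng1 and Kng2 held values from 0.25 to 0.50, and their pairs with Lrg1, Lcn2 and Saa3 lay between -0.07 and 0.10.

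All 4 broad members stood at 100 CPM or more in 248 of 386 cells (64.2%). The share was 88.7% and 75.7% in N1 and N2 and 87.5% in each of P1 and P2 of order 2. In order 1 it was 33.3% in N2, 68.1% in P1, 15.8% in P3 and none of 5 cells in P2. All 4 sets of order 2 thus lay above all sets of order 1.

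The genes most like each broad member, by mean rho among 3735 genes other than the members, overlapped. The members themselves were left out of this order; Hp with Serpina3n, and Kng1 with Kng2, had higher values than any of these genes. Dpep1, a membrane dipeptidase, was first for Hp (0.40), second for Kng1 (0.42) and also among the nearest for Kng2 (0.40). Serping1, the C1 inhibitor that blocks plasma kallikrein, stood among the first 3 for Kng1 (0.41), Kng2 (0.42) and Serpina3n (0.35). Gpx3, a secreted glutathione peroxidase, led for Kng1 (0.44), Agt, the angiotensin precursor, for Kng2 (0.42), and the matrix protein gene Spon1 for Serpina3n (0.37). For Hp the next were Rpn2 (0.38), Lgals3bp (0.37), Agt (0.36) and Chrdl1 (0.35). Kng1 was followed also by Cxcl14 (0.41) and H2-D1 (0.41), Kng2 by Gpx3 (0.38) and Adipoq (0.37), and Serpina3n by Efemp2 (0.33), C2 (0.32) and Lgals3bp (0.32).

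For the rare members the nearest genes were of another kind. Lcn2 was nearest to the granulocyte genes Ngp (0.77 over 4 sets), S100a9 (0.52) and S100a8 (0.50 over 6 sets each) and Lyz2 (0.44), followed by Srsf1 (0.23). Ngp had no count in order 1, so its values are from order 2 alone. S100a9 ran from -0.03 to 0.92 and S100a8 from -0.06 to 0.91, each above 0 in 4 of 6 sets. Lyz2 ran from -0.08 to 0.93, above 0 in 5 of 7 sets. Lrg1 was nearest to Ngp (0.33 over 4 sets), followed by Rab5if (0.24), Gnai2 (0.22), Ltbp3 (0.21) and Vps26a (0.21). Only genes with 5 counts in 25% of cells were ranked. Pecam1, with a count in 16.2% of Tomato+ and 11.4% of Tomato− cells, could not appear. Saa3 reached 0.24 at most, with Pdgfra, followed by Cxcl10 (0.22), Rest (0.21), Klf10 (0.20) and Pcbd2 (0.20). Weak values such as these, over 17 cells with 5 or more Saa3 counts, are no finding.

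Other acute phase genes were read from lists. Of 30 further genes that rise in the acute phase in liver, 19 had a count and 9 passed the level filter. Of these 9, 0 were called higher or lower, beside the 3.10% and 4.30% of all tested genes given above, which hold for each list. The most abundant, in summed CPM, were the copper carrier ceruloplasmin Cp (1489 CPM), the metalloreductase Steap4 (1105 CPM) and the interleukin 1 antagonist Il1rn (577 CPM). Crp, Apcs and the fibrinogen genes Fga, Fgb and Fgg had no count. Of 9 genes that fall in the acute phase and stood in the table, 5 had a count. The only one to pass the filter was Trf, encoding transferrin, at 3243 CPM and not called. Its list also held Rbp4 at 17.3 CPM, and Alb and Ttr had no count. The median ratio was 0.13 for the first list and -0.17 for the second.

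The neighbours of Serpina3n in its gene cluster were partly expressed. Of 9 paralogs in the table, 7 had a count and 4 passed the level filter, of which 1 was called higher and 0 lower, beside 3.10% and 4.30% of all tested genes. Serpina3c was the one called, its sums in order 1 being 343 CPM in Tomato+ and 40.2 CPM in Tomato−, and those in order 2 267 and 165.5 CPM, with ratios of 3.06 and 0.69. Serpina3g (815.6 CPM) and Serpina3f (761 CPM) had mean ratios of 0.51 and 0.31. The median ratio was 0.51 over those with a count and 1.19 over the 4 that passed.

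Inducers of the acute phase were read the same way. Of 11 cytokine genes 9 had a count, 3 passed the level filter and 0 were called, with Il6 at 329.9 CPM, Clcf1 at 41.4 CPM and Lif at 26 CPM. All 12 receptor genes had counts, 11 passed and 0 were called: Lepr was at 4038 CPM, Lifr at 938 CPM and the TNF receptor gene Tnfrsf1a at 355 CPM. All 16 genes of the transcription and feedback list had counts, 15 passed and 0 were called, led by the immediate early genes Fos (7957 CPM), Jun (2769 CPM) and Junb (1961 CPM). Median ratios of these lists were 0.07, 0.07 and 0.34 over genes with a count, and 1.11, 0.03 and 0.35 over those that passed. Of the 3 cytokine genes that passed, Lif and Clcf1 were at 0.821 and 0.274 CPM in Tomato− cells of order 1 and had negative ratios, -2.14 and -0.24, in order 2.

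On the kinin pathway, 8 of 12 genes had a count, 3 passed the level filter and 0 were called. Serping1 was at 10409 CPM, the kinin-degrading membrane protease Mme at 592 CPM and the carboxypeptidase Cpd at 47.9 CPM. The kallikrein gene Klk1, the factors F11 and F12 and the bradykinin receptor gene Bdkrb2 had no count, and Bdkrb1 was at 0.522 CPM. Among 19 partners and receptors of the members 17 had a count and 10 passed. Lrp1, which clears protease and inhibitor complexes, was at 319.5 CPM, Hmox1, which breaks down haem, at 289.5 CPM and Eng, a TGF-beta co-receptor, at 121.1 CPM. Eng was called higher, with ratios of 1.33 and 0.64, and the matrix protease gene Mmp9 lower, with -2.71 and -0.84. The haptoglobin receptor gene Cd163 was at 0.0894 CPM. Endothelial markers, of which Eng is one, made up more than 1% of counts in 3 cells, all Tomato+, and myeloid markers in 12, all Tomato−. Their part in the values of Eng and Mmp9 was not tested.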

How the data were processed

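The RNA of each sorted cell was read in 1 library, 388 in all, and the values stand in 1 table. The authors deposited expected counts, and 4.91% of the values above 0 are not whole numbers. Per the file headers the columns of order 1 end in an RSEM gene result suffix. Among tools, StringTie 1.3.3b, HTSeq 0.6.0 and HISAT stand in the submitters' processing notes beside the build GRCm38, with roles not given in the sources used here. By the protocols in the labels, polyadenylated RNA was reverse transcribed and amplified whole. No molecular identifiers are mentioned, so intervals cover counting error only.

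Expected counts were rounded. Columns were matched by name to a group and set, with 0 columns unused and 0 duplicated. Of 388 cells, the 386 with 1000 genes and 10000 counts or more were used; no doublet caller was run. Groups were summed within each order as CPM, and ratios are log2 of CPM + 1, which understates changes of low genes. Lengths for TPM are union exons of GENCODE M21; whether reads cover whole transcripts is not given. A pool is a library code in order 1 and, by assumption, sets of the same number in order 2.

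The members and lists were chosen with earlier results of these data known. Named genes are the members, up to 3 of the most abundant and any called gene per list, and the 5 nearest genes per member with 5 counts in 25% of cells, without the other members and predicted, mitochondrial and ribosomal protein genes; genes named at 0 or as further examples were chosen after their values were seen. Since labels name no animal, no test was made. The code was tested on simulated data. Alternatives covered pseudocount, filters, scaling (edgeR 4.0.16 for TMM), pooling, thinning, other cell types and each set left out. Python 3.11.15, numpy 2.4.6, pandas 2.3.3, scipy 1.17.1 and R 4.3.3 were used.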

Additional observations from a re-analysis of the deposited data

Results flagged for a closer look

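Lcn2 pointed opposite ways in the 2 orders. The log2 ratio of Tomato+ over Tomato− was 2.26 in order 1 and -7.16 in order 2. The difference between the orders was not tested, since each order holds 1 sample of each group. In order 2 the 8 cells with myeloid markers above 25% of counts, all Tomato−, held 122813 of the Lcn2 counts, and the other cells of order 2 held 1289. Without these 8 and the 3 endothelial-rich cells the ratios were 2.29 and -0.82.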

How the results depend on the processing

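No ratio of a called member changed sign, since 0 members were called. Over 26 alternatives the mean log2 ratio kept its sign in 26 for Hp (0.05 to 0.90), 25 for Saa3 (0 to 3.54, at 0 with the median of cells), 24 for Serpina3n (-0.28 to 1.43), 24 for Lrg1 (-0.09 to 3.38), 23 for Lcn2 (-7.33 to 0.96), 21 for Kng2 (-0.08 to 0.27) and 18 for Kng1 (-0.14 to 0.94). With all cells summed over both orders, 2 members were called higher (Hp and Lrg1) and 1 lower (Lcn2), with 14.7% of tested genes higher and 15.5% lower. Without cells with myeloid markers above 1% of counts, 1 member, Lrg1, was called higher, beside 200 of 6674 tested genes higher and 253 lower. That setting kept the 3 endothelial-rich cells. Without those 3 and the 8 granulocyte-rich cells, 0 members were called higher and 0 lower. With each set left out in turn, 0 to 1 members were called higher and 0 to 1 lower (Lrg1 without N2 of order 2, and Lcn2 without N2 of order 1, which leaves order 2 alone), and 3.08% to 8.02% of tested genes were called higher and 3.98% to 14.3% lower. As reported, 3.10% (209 of 6748) were higher and 4.30% (290) lower. The shares were 1.51% and 2.56% with a pseudocount of 10, 1.36% and 1.64% with the median of cells, and 1.03% and 2.00% within batches that hold both groups. Without the level filter 792 and 835 of 25000 genes were called, and 2.25% and 3.22% of 5597 genes were called with small counts (below 1% of the highest in the pool) zeroed. The cause was not tested. Choosing cells by Lepr, and leaving out cells rich in granulocyte or endothelial transcripts, were alternatives chosen after seeing the data. No paired analysis was possible because the replicate numbers only count cells; the batches above set groups side by side within library codes or set numbers, not by replicate. With few counts, Saa3, Lcn2 in order 1 and Lrg1 in most cells are at the limit of what the depth shows.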
